A study of Homo sapiens with 6 samples.

Results

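The genes of cell adhesion to the basement membrane were examined in A549 cells, an established human lung adenocarcinoma line, after knockdown of DDX17, a DEAD-box RNA helicase. They were the integrin chains, the laminin chains and 14 proteins of focal adhesions, chosen by gene symbol among the protein coding genes of the count table. Of 47 such symbols, 42 had at least 60 reads in total, out of 29476 genes in the table, and these 42 are the members described here. They comprised 10 integrin alpha chains, 8 integrin beta chains, 10 laminin chains and 14 focal adhesion genes. All 42 passed the expression filter of the test, but ITGB2, ITGB6 and ITGB8 only through the knockdown libraries and ITGB7 only through the control libraries. The other 5 symbols were nearly silent, with 47 reads for ITGA4, 29 for LAMB4, 6 for LAMA1, 4 for ITGA8 and 2 for ITGA9 over all libraries.

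RNA-seq was performed on polyadenylated RNA of 3 control libraries (siCtrl) and 3 DDX17 knockdown libraries (siDDX17). The control group received a nontargeting siRNA and the knockdown group an siRNA against DDX17, both by lipid transfection and with no other agent. The labels call the genotypes control plasmid and DDX17 knockdown, whereas the methods describe siRNAs, and each group rests on 1 cell line and 1 siRNA. The library totals were between 30658136 and 39182371 reads, of which the members took 0.503% to 0.550%. DDX17 itself fell from 177, 184 and 206 CPM (counts relative to the library total, scaled with TMM) in the siCtrl libraries to 32.1, 30.8 and 30.4 in the siDDX17 libraries, a log2 fold change of -2.60 (SE 0.0685). The libraries were epithelial by KRT8 and KRT18, which made up most of the summed CPM of 5 epithelial markers. This sum was 5534 to 6096 in siCtrl and 4834 to 5266 in siDDX17. CDH1 was at 14.7 to 17.8 CPM and KRT19 at 27.5 to 39.5 CPM. EPCAM was at 0.738 to 1.08 CPM in siCtrl and 2.21 to 2.28 CPM in siDDX17. In the edgeR test described below, EPCAM was called up, KRT8, KRT18 and KRT19 were called down, and CDH1 was not called. The endothelial list summed to at most 0.443 CPM and the fibroblast list to at most 3.98 CPM, whereas the leukocyte list reached 28.8 CPM through CD14, with PTPRC at or near 0. Among the controls, siCtrl 1 stood somewhat apart. The standard deviation of the difference in log2 CPM over all tested genes was 0.364 to 0.377 for the pairs with siCtrl 1, 0.318 for siCtrl 2 and 3, and 0.269 to 0.275 among the siDDX17 libraries. In bulk RNA a change in the share of cells that express a gene and a change in RNA per cell cannot be told apart.

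Integrins are receptors of 1 alpha and 1 beta chain that span the plasma membrane, bind matrix proteins outside the cell and connect to actin or keratin filaments inside it. Laminins are trimers of an alpha, a beta and a gamma chain, and they are the main adhesive proteins of the basement membrane on which epithelial cells rest. When integrins are engaged, talin and kindlin bind the tails of beta chains, and a layer of adaptors, kinases and actin linkers builds up as the focal adhesion. The chain composition decides which ligand is bound. Chains encoded by ITGA3 and ITGA6 bind laminins, those of ITGA1, ITGA2 and ITGA11 bind collagens, and those of ITGA5 and ITGAV bind fibronectin, vitronectin and related proteins.

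The DDX17 siRNA can pair through bases 2 to 8 of its antisense strand, the seed of a small RNA, with the 7 bases TATTGCT in 3' UTRs. Therefore the 3' UTRs of the members were searched for these letters, on the transcribed strand. Of 12994 tested genes with a 3' UTR, 14.5% held the 7mer, and 5 of the 42 members (11.9%) held it. The sites of 4 of them are shown because an siRNA can act on such matches as a miRNA does, and their part in the changes of these members was not tested. Each line gives 29 bases of the GRCh38 sequence, 5' to 3' on the strand of the gene, with the 7mer in capitals.
ITGA1: aaataattgatTATTGCTcccattgtaaa
ITGB8: tcttaaaagatTATTGCTttttaaagtgt
TNS1: ttgtttttccaTATTGCTttattgccttc
LIMS1: agcttggaataTATTGCTtcagaaaactg
The sites were at chr5:52955049-52955077 for ITGA1, chr7:20410543-20410571 for ITGB8 and chr2:108684830-108684858 for LIMS1, all on the plus strand, and at chr2:217802725-217802753 on the minus strand for TNS1. Of the 5 members with the 7mer, 3 rose (ITGA1, ITGB8 and TNS1) and 2 fell, LIMS1 among them. Of all tested genes with the 7mer, 24.4% were called up and 28.3% down, and of those without it 26.1% and 26.3%. The 7mer TCGGAGA, which corresponds to the sense strand of the nontargeting siRNA, was in the 3' UTRs of 0 of 42 members and 2.13% of all these genes. Of all tested genes with TCGGAGA, 48.0% were called up and 12.3% down, and of those without it 25.3% and 26.9%. The cause of this difference was not tested. The antisense strand of the nontargeting siRNA and the sense strand of the DDX17 siRNA were not searched, so the 2 siRNAs are not compared strand for strand. A match of letters is not a measured binding site.

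The members were compared between the groups with the quasi-likelihood test of edgeR over 15615 genes. At an adjusted p under 0.05, 13 members were upregulated and 13 were downregulated after DDX17 knockdown, and 16 were not called. Over all tested genes, 24.5% were called up and 24.3% were called down at this limit, against 31.0% of the members in each direction. The members of higher expression were called more often, as were all genes: at an average of at least 3 log2 CPM, 72.4% of 29 members and 57.9% of 8977 genes were called. The median log2 fold change of the members was 0.06 and that of all tested genes 0.01. In 28 members the ranges of CPM of the groups did not overlap, 14 with siDDX17 above and 14 below, and this was so for 56.5% of all tested genes. By class, 3 alpha chains rose and 3 fell, 1 beta chain rose and 2 fell, 3 laminin chains rose and 3 fell, and 6 focal adhesion genes rose and 5 fell. Without siCtrl 1, 15 members were called up and 12 down, and the share of all tested genes called in that fit is not given here.

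The split between up and down depended on the scaling. When reads were scaled by library size only, the median log2 fold change over all tested genes was 0.13, with 33.5% of genes called up and 15.97% down, and 20 members were up and 8 down. ITGA3, FERMT2, PARVA, LIMS1 and LAMB2 were then no longer called (-0.15 to -0.07), and TLN1, ITGA10, ITGAV, ITGB2, ITGB5, LAMB3 and LAMC1 were called up (0.16 to 1.08). The CPM values and log2 fold changes below are those of TMM scaling unless another setting is named. Under TMM the median over all genes was near 0. The FPKM levels below are scaled by library total and not by TMM. When log2(FPKM + 0.1) was tested with limma, the median over all tested genes was 0.12. A difference in FPKM level between the groups is therefore not a call of the TMM fit.

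Most changes were small. At an absolute log2 fold change over 1, 2 members were up (LAMA4 and ITGB8) and 1 was down (ITGB7), where 4.65% and 2.92% of all tested genes were called up and down. At the limits stated by the study, a p-value under 0.01 and a fold change of 1.5, 5 members were up (LAMA4, ITGB8, TNS3, TLN2 and ITGA1) and 5 were down, ITGA5, ITGA2, ITGB4 and ITGB7 among them. All tested genes were called at 11.0% and 8.03% at these limits. ITGB7 and ITGB8 had 82 and 75 reads in total, so that the count past the log2 fold limit rested on LAMA4 alone when genes under 10 counts in any library were left out. Each of ITGB7 and ITGB8 passed the expression filter only through the group where it was higher. Without siCtrl 3 or without siDDX17 3, ITGB7 was no longer called and the count of members down past that limit was 0. At the limits of the study, 3 members were down when either of these libraries was left out.

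**Figure D1:**
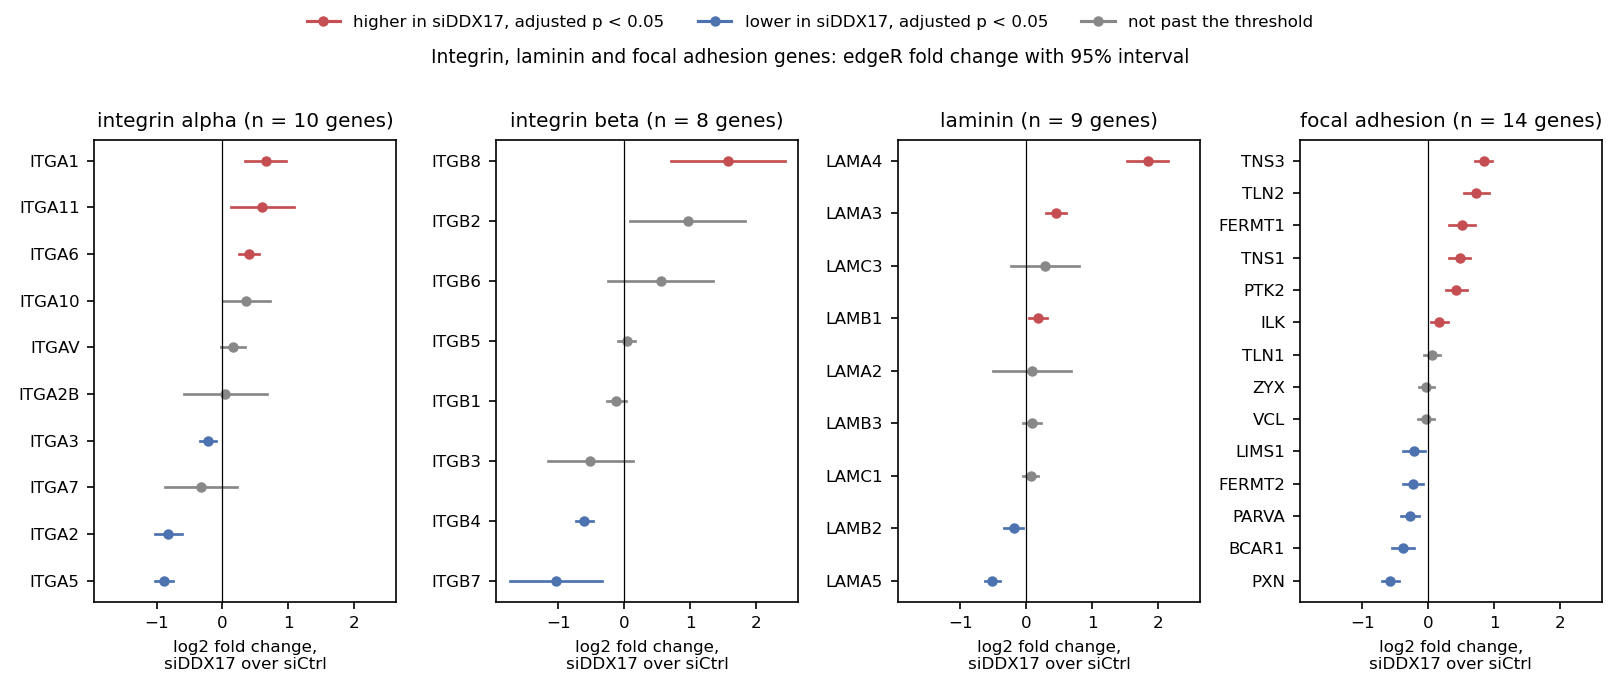
Log2 fold change (siDDX17 over siCtrl, x axis) of 41 members by class, with points for the edgeR estimate and bars for its 95% interval. Red points (13) were upregulated and blue points (12) downregulated at an adjusted p under 0.05, and the widest intervals belong to chains with few reads such as ITGB8 and ITGB7.

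Among the laminin chains, LAMA4 was the most changed member by fold. LAMA4 encodes an alpha chain known from the laminins of blood vessels and mesenchyme. The siCtrl libraries held 1.62, 1.54 and 1.55 CPM of it, the siDDX17 libraries 6.25, 5.02 and 5.63 CPM. All siDDX17 libraries were above all siCtrl libraries, and the fold change was 3.58 (log2 fold change 1.84, SE 0.145, adjusted p = 3.45e-07 in edgeR). The gene lies on chr6:112107931-112254939 on the minus strand (GRCh38), and no exon of it is shared with another counted gene. In absolute terms LAMA4 stayed low, at 0.183 FPKM (a level per transcript length and library total) in siCtrl and 0.720 in siDDX17.

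LAMA5, the alpha chain of the laminins that predominate in adult epithelial basement membranes, moved the other way. It was at 316, 307 and 326 CPM in siCtrl and at 221, 218 and 224 CPM in siDDX17. The groups did not overlap and the log2 fold change was -0.52 (SE 0.0532, adjusted p = 3.87e-06 in edgeR). LAMA3, the alpha chain of the laminin that anchors hemidesmosomes, rose from 30 to 35.6 CPM in siCtrl to 43.4 to 46.1 CPM in siDDX17 (log2 fold change 0.45, SE 0.0702). Thus LAMA4 and LAMA3 rose and LAMA5 fell, whereas LAMA2, a chain of muscle and nerve, was at 0.521 to 0.805 CPM and was not called. LAMA5 shares 244 exon bases with ADRM1 on the other strand, and the use of strand in the counting is not stated.

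LAMA4 and LAMA5 also differed in the sequence at their starts. The windows below run from 250 bases before to 50 bases after the start given by RefSeq for GRCh38.p14, 5' to 3' on the minus strand, with the dinucleotide CG in capitals. They are shown because these are the alpha chains with the most opposed changes.
LAMA4: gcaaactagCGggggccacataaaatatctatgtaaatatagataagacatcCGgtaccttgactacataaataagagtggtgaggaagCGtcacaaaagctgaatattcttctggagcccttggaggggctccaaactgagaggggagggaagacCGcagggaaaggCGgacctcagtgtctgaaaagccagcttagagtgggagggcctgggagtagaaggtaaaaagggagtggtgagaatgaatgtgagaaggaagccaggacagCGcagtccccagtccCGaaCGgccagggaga
LAMA5: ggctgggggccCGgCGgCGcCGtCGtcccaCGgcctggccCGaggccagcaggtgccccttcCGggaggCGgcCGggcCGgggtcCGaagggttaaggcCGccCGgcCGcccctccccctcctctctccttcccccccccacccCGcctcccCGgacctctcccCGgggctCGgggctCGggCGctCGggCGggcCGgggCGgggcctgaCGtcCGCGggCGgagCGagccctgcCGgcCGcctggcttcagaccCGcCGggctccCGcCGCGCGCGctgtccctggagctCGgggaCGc
The window of LAMA4, chr6:112254518-112254817, held 8 CG dinucleotides and 51.3% G and C, and 39.3% of 35116 windows held fewer CG. The window of LAMA5, chr20:62367263-62367562, held 41 CG dinucleotides and 82.7% G and C, and 93.3% of windows held fewer. The median of all windows was 14 CG, and the 53 windows of the 32 members with an entry also had a median of 14. The letters are given as a description, and no measure of promoter activity was made.

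Of the gamma chains, LAMC1, the gamma chain of most laminins, was at 218, 203 and 207 CPM in siCtrl and 221, 218 and 220 CPM in siDDX17, and its log2 fold change of 0.07 (95% interval -0.05 to 0.19) was not called. LAMC3 was at 0.679 to 1.18 CPM and was not called.

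For the beta chains, LAMB1, the partner of LAMC1 in many laminins, was at 187, 164 and 163 CPM in siCtrl and 200, 187 and 195 CPM in siDDX17. It was called up at 0.18 (SE 0.0643, adjusted p = 0.0332 in edgeR), but siCtrl 1 lay within the siDDX17 range, and the call was lost without any of siCtrl 2, siCtrl 3, siDDX17 1 or siDDX17 3 (log2 fold changes of 0.14 to 0.18). LAMB3 was at 42.8, 40.5 and 46.4 CPM in siCtrl and 46.2, 47.3 and 44.6 CPM in siDDX17 and was not called (0.09, 95% interval -0.05 to 0.23). LAMB2 fell slightly, by 0.19 on the log2 scale (SE 0.0686), and this call was lost without siCtrl 3 or without any siDDX17 library, at log2 fold changes of -0.17 to -0.22.

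Levels of different chains were compared per length with the deposited FPKM values. In siCtrl, LAMA5 (25.4 ± 1.16 FPKM, SD, n = 3), LAMB1 (25.3 ± 2.51) and LAMC1 (24.3 ± 1.48) were the most abundant laminin chains and their ranges overlapped. In siDDX17 they separated into LAMB1 (31.3 ± 1.35), LAMC1 (27.9 ± 0.436) and LAMA5 (19.4 ± 0.466), in this order and without overlap. LAMB3 (8.82 FPKM) was lower in siCtrl. In siDDX17, LAMA3 (4.06) and LAMB2 (3.81) had overlapping ranges. With reads per exon length in place of FPKM, LAMC1, LAMA5 and LAMB1 made up 31.8%, 28.4% and 11.8% of the laminin sum in siCtrl. In siDDX17 these shares were 35.8%, 21.3% and 14.4%, so the order of these 3 chains depended on the length used. Within a library a share of summed FPKM does not depend on the scaling between libraries. LAMA5 made up 89.5% ± 0.686 of laminin alpha FPKM in siCtrl and 80% ± 0.472 in siDDX17, LAMA3 made up 9.59% ± 0.666 and 16.8% ± 0.223, and LAMA4 made up 0.647% ± 0.0281 and 2.97% ± 0.301. For each of these shares the groups did not overlap, and the exact two-sided permutation test gave p = 0.1, the smallest value that 3 libraries against 3 allow.

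**Figure D2:**
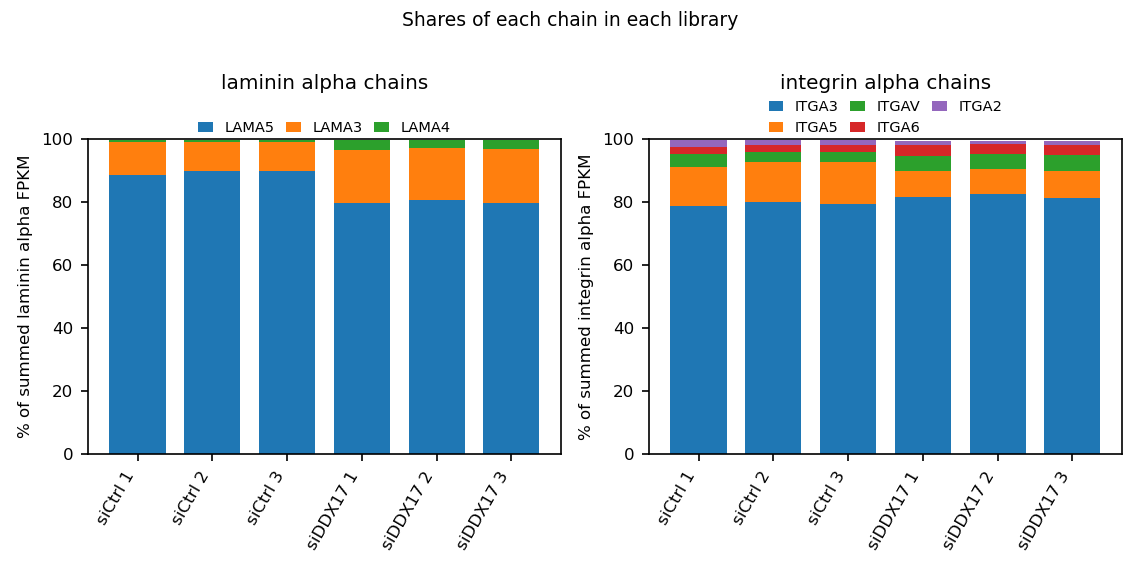
Share (y axis, percent) of each chain in the summed FPKM of laminin alpha and integrin alpha chains in each of the 6 libraries (x axis). The LAMA5 part of the bars was 88.8% to 90.0% in siCtrl and 79.7% to 80.5% in siDDX17, with LAMA3 and LAMA4 filling the difference, and the ITGA5 part was narrower in siDDX17.

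Among the integrin alpha chains, ITGA5 fell the most. It encodes the alpha chain of the classical fibronectin receptor and lies on chr12:54395261-54419266 (minus strand). The siCtrl libraries held 192, 190 and 218 CPM of it, the siDDX17 libraries 109, 108 and 109 CPM. The groups were far apart, with a log2 fold change of -0.89 (SE 0.0624, adjusted p = 1.3e-07 in edgeR). ITGA2, the alpha chain of a collagen receptor, was at 59.0, 44.6 and 47.4 CPM in siCtrl and at 29.6, 26.4 and 29.3 CPM in siDDX17 (log2 fold change -0.82, SE 0.0942, adjusted p = 1.0e-05 in edgeR). For ITGA2, siCtrl 1 was the highest library, and the log2 fold change was -0.71 without it. FN1, the gene of fibronectin, was itself not called at -0.01 (SE 0.0776).

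The chains that bind laminins had smaller fold changes. ITGA3 was the most abundant alpha chain, at 1366, 1343 and 1446 CPM in siCtrl and 1182, 1213 and 1161 CPM in siDDX17. It fell by 0.22 on the log2 scale (SE 0.0565, adjusted p = 0.00488 in edgeR) and the groups did not overlap. ITGA6 rose from 45.5, 39.9 and 42.7 CPM to 61.1, 53.4 and 55.1 CPM (0.40, SE 0.0699, adjusted p = 0.000346 in edgeR), again without overlap. ITGAV, the chain that binds vitronectin and related ligands, was at 109, 84.4 and 88.7 CPM in siCtrl and 101, 103 and 110 CPM in siDDX17. It was not called (0.16, 95% interval -0.02 to 0.33), but siCtrl 1 alone lay in the siDDX17 range, and without it the log2 fold change was 0.26 with an adjusted p of 7.5e-05 in edgeR.

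The other alpha chains were low. ITGA1, a collagen binding chain, rose from 2.39, 2.69 and 2.48 CPM to 4.36, 3.43 and 4.08 CPM (0.65, SE 0.144, adjusted p = 0.00209 in edgeR). ITGA1 shares 499 exon bases on the same strand with PELO, which had 11522 reads against 701 for ITGA1, so that its counts are uncertain. ITGA11, also a collagen binding chain, was at 1.03, 0.769 and 0.827 CPM in siCtrl and 1.53, 1.32 and 1.17 CPM in siDDX17 and was called up (0.60, SE 0.220, adjusted p = 0.0356 in edgeR), but the call was lost without any of siCtrl 2, siCtrl 3, siDDX17 1 or siDDX17 2 (0.50 to 0.62) and with DESeq2 (0.60). ITGA2B, the platelet chain, was at 0.384, 0.629 and 0.560 CPM in siCtrl and 0.493, 0.603 and 0.519 CPM in siDDX17 and the groups overlapped. ITGA7 was at 0.768 to 1.41 CPM and was not called. ITGA10 was at 1.96 to 3.02 CPM in siCtrl and 3.14 to 3.19 in siDDX17 and was not called (0.36), although it passed the limit without siCtrl 3 (0.54, adjusted p = 0.0165 in edgeR).

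By FPKM, the order of the abundant alpha chains was the same in both groups, but the distances changed. With reads per exon length, ITGAV, ITGA6 and ITGA2 made up 2.60%, 3.42% and 3.42% of the alpha chain sum in siCtrl. In siDDX17 they made up 3.52%, 5.49% and 2.34%, so the order below ITGA5 depended on the length used. The levels that follow are FPKM. ITGA3 stood at 260 ± 12.8 FPKM in siCtrl and 243 ± 2.47 in siDDX17. ITGA5 followed at 41.3 ± 3.40 and 24.4 ± 0.420, and ITGAV at 12 ± 1.91 and 14.6 ± 0.764. ITGA6 (6.70 FPKM) and ITGA2 (5.88 FPKM) had overlapping ranges in siCtrl and separate ones in siDDX17, at 9.69 and 3.62 FPKM. ITGA5 made up 12.6% ± 0.502 of alpha chain FPKM in siCtrl and 8.24% ± 0.166 in siDDX17, and ITGA3 made up 79.5% ± 0.611 and 81.9% ± 0.596, with p = 0.1 in the exact permutation test for both. Thus the share of ITGA3 was higher in siDDX17 although its CPM was lower, since the summed alpha chain FPKM was 307 to 341 in siCtrl and 296 to 297 in siDDX17.

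For the beta chains, the abundant ITGB1 and ITGB5 were not called and ITGB4 fell. ITGB1, the common partner of most alpha chains, was at 1081, 996 and 953 CPM in siCtrl and 975, 870 and 943 CPM in siDDX17 (-0.12, 95% interval -0.26 to 0.02). ITGB5, a partner of ITGAV, was at 468, 491 and 529 CPM in siCtrl and 513, 515 and 499 CPM in siDDX17 (0.04, 95% interval -0.09 to 0.16, and -0.01 without siCtrl 1). ITGB4, which pairs with ITGA6 in hemidesmosomes, fell from 95.6, 97.7 and 103 CPM to 66.9, 65.6 and 62.5 CPM (-0.61, SE 0.0571, adjusted p = 1.79e-06 in edgeR). Both groups of ITGB4 were tight and did not overlap. The sign of ITGB1 was not stable, as it turned to 0.00 when reads were scaled by library size only.

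The remaining beta chains were all under 1.1 CPM, and the depth limits what can be said about them. ITGB8, a partner of ITGAV that activates latent TGF-beta, had 9, 4 and 4 reads in siCtrl and 23, 19 and 16 reads in siDDX17 (0.266, 0.140 and 0.107 CPM, and 0.597, 0.521 and 0.415 CPM). It was called up at 1.57 (SE 0.400, adjusted p = 0.00546 in edgeR), with an interval of 0.70 to 2.43. ITGB8 passed the expression filter only through the siDDX17 libraries, where it was higher, so its call is not independent of the filter. ITGB7, a chain of lymphocytes, had 17, 14 and 22 reads in siCtrl and 10, 11 and 8 in siDDX17 (0.502, 0.489 and 0.587 CPM, and 0.259, 0.302 and 0.208 CPM). It was called down at -1.04 (SE 0.324, adjusted p = 0.0170 in edgeR), but not without siCtrl 3 (-0.95), without siDDX17 3 (-0.91) or with DESeq2 (-1.05). The filter was passed by ITGB7 only through the siCtrl libraries, where it was higher. ITGB7 shares 1881 exon bases with ZNF740 on the other strand, which had 6108 reads.

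ITGB2, the beta chain of leukocyte integrins, was at 0.502, 0.245 and 0.187 CPM in siCtrl and 0.649, 0.795 and 0.389 CPM in siDDX17 and was not called (0.96, SE 0.404, adjusted p = 0.0642 in edgeR). It was called without siCtrl 1 (1.49, adjusted p = 0.00594 in edgeR) and without siDDX17 3 (1.21). ITGB3, the partner of ITGA2B and ITGAV, was at 0.768, 0.559 and 0.560 CPM in siCtrl and 0.493, 0.329 and 0.493 CPM in siDDX17 and was not called (-0.52, 95% interval -1.16 to 0.13). ITGB6, an epithelial partner of ITGAV, was at 0.502, 0.245 and 0.747 CPM in siCtrl and 0.623, 0.576 and 1.06 CPM in siDDX17 and was not called (0.55, 95% interval -0.25 to 1.35). By FPKM, ITGB1 (235 ± 19.1 in siCtrl and 237 ± 15.7 in siDDX17), ITGB5 (104 ± 6.11 and 117 ± 0.956) and ITGB4 (14.6 ± 0.610 and 10.5 ± 0.301) held the same order in both groups. With reads per exon length, ITGB1 and ITGB5 made up 43.2% and 47.4% of the beta chain sum in siCtrl. In siDDX17 they made up 42.0% and 51.4%, so the order of ITGB1 and ITGB5 depended on the length used.

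**Figure D3:**
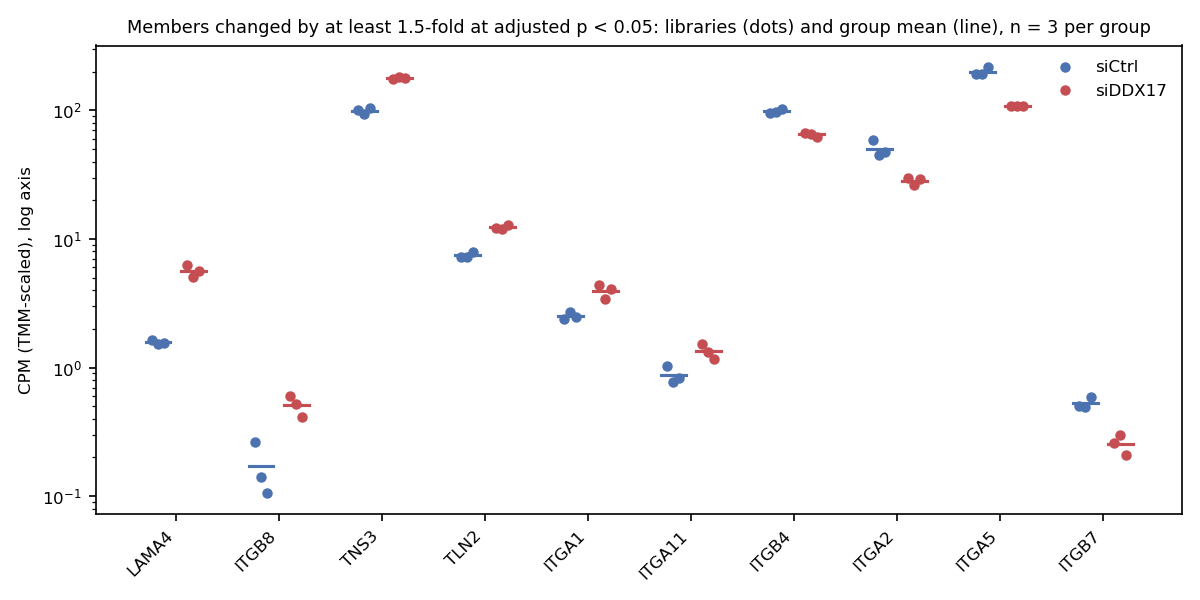
CPM (y axis, log scale) of 10 members with an adjusted p under 0.05 and a fold change of at least 1.5, in each siCtrl library (blue) and siDDX17 library (red), with lines for the group means. The groups of each gene do not overlap, and LAMA4, ITGB8, ITGA1, ITGA11 and ITGB7 lie below 7 CPM.

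Among the focal adhesion genes, the RNA of a scaffold and that of the kinase it recruits changed in opposite directions. PXN encodes paxillin, the scaffold on which focal adhesion kinase and other proteins dock. It fell from 216, 207 and 233 CPM to 150, 150 and 142 CPM (log2 fold change -0.57, SE 0.0602, adjusted p = 4.75e-06 in edgeR), without overlap. PTK2, the gene of focal adhesion kinase, rose from 84.1, 78.9 and 95.1 CPM to 121, 109 and 118 CPM (0.43, SE 0.0721, adjusted p = 0.000268 in edgeR). BCAR1, the docking protein p130Cas, a substrate of this kinase, fell by 0.38 on the log2 scale (SE 0.0792), from 72.0 to 91.0 CPM in siCtrl to 62.1 to 66.9 CPM in siDDX17. PXN shares 1769 exon bases with PXN-AS1 on the other strand, which had 879 reads against 38661.

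Of the tensins, which link integrin tails to actin, both members, TNS1 and TNS3, rose. TNS3 was at 101, 92.9 and 104 CPM in siCtrl and at 176, 181 and 178 CPM in siDDX17 (0.84, SE 0.0581, adjusted p = 1.06e-07 in edgeR), the largest change among the abundant focal adhesion genes. TNS1 rose from 27.2 to 31.4 CPM in siCtrl to 38.3 to 43.6 CPM in siDDX17 (0.48, SE 0.0758). TNS4, a tensin of the adaptor list and not a member, fell from 127, 145 and 172 CPM to 112, 120 and 112 CPM, without overlap (-0.37, SE 0.0883, adjusted p = 0.0038 in edgeR). Of the talins, the proteins that activate integrins and couple them to actin, TLN2 rose from 7.24, 7.20 and 7.93 CPM to 12.2, 12 and 13 CPM (0.73, SE 0.0887, adjusted p = 1.72e-05 in edgeR). TLN1, the main talin by level, was not called (169 to 179 CPM in siCtrl, 177 to 192 in siDDX17, log2 fold change 0.06, 95% interval -0.07 to 0.18).

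The kindlins, which bind beta tails together with talin, moved apart. FERMT1, the kindlin of epithelia, rose by 0.51 on the log2 scale (SE 0.0922), from 10.5 to 12.8 CPM in siCtrl to 15.9 to 18.1 CPM in siDDX17. FERMT2, the widely expressed kindlin, fell by 0.23 (SE 0.0710), from 31.4 to 33.8 CPM to 26.0 to 29.9 CPM, and its call was lost without siDDX17 2 (-0.17) or siDDX17 3 (-0.24).

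ILK, LIMS1 and PARVA encode the pseudokinase, the LIM protein and the parvin that form a ternary complex at integrin tails. ILK was at 81.7, 87.3 and 89.7 CPM in siCtrl and 98.3, 99.6 and 93.7 CPM in siDDX17 (0.17, SE 0.0576, adjusted p = 0.0244 in edgeR), and its call was lost without siCtrl 2, siDDX17 1 or siDDX17 2 (0.15 to 0.17). PARVA fell by 0.27 (SE 0.0627), from 33.5 to 35.7 CPM to 28.0 to 28.7 CPM. LIMS1 fell by 0.21 (SE 0.0754), from 59.3 to 73.9 CPM to 54.4 to 58.0 CPM, and its call was lost without siCtrl 1 (-0.13, adjusted p = 0.0525 in edgeR) or without any siDDX17 library (-0.18 to -0.23). The human genome holds near-identical copies of LIMS1, and ILK shares 2374 exon bases with TAF10 on the other strand (20144 reads), so both counts are uncertain.

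VCL and ZYX, the actin linkers vinculin and zyxin, were not called. VCL was at 148, 158 and 162 CPM in siCtrl and 155, 150 and 154 CPM in siDDX17, and ZYX was at 222, 232 and 232 CPM and 223, 229 and 220 CPM. Both log2 fold changes were -0.03, and both became positive, at 0.09 to 0.10, when only library size was used for scaling or FPKM was tested. Per length, ZYX was the highest focal adhesion gene in both groups (78.3 ± 1.08 FPKM in siCtrl and 83.9 ± 0.722 in siDDX17). PXN (42.6 FPKM) was above ILK (34.3 FPKM) in siCtrl, and below it in siDDX17 (31.3 and 42.3 FPKM), with no overlap between the genes in either group. PXN made up 16.4% ± 0.589 of the summed focal adhesion FPKM in siCtrl and 11.2% ± 0.220 in siDDX17, and TNS3 made up 4.51% ± 0.208 and 8.20% ± 0.104 (exact permutation p = 0.1 for both).

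Ratios of partners within a library do not depend on the scaling between libraries, and 15 pairs of chains or proteins that assemble or stand in for each other were compared after their values had been seen. Their p is therefore no independent evidence, and it could not go below 0.1 in the exact permutation test. The ratio of ITGA6 to ITGB4 was 0.458 ± 0.0406 in siCtrl and 0.921 ± 0.0542 in siDDX17. The ratio of PTK2 to PXN was 0.205 ± 0.00707 and 0.413 ± 0.0293. All libraries of one group lay on one side in these pairs. The ratio of LAMA5 to LAMC1 was 1.05 ± 0.0451 in siCtrl and 0.695 ± 0.00643 in siDDX17, and that of FERMT1 to FERMT2 was 0.249 ± 0.0159 and 0.416 ± 0.0015. The ratio of ITGA5 to ITGB1 was 0.176 ± 0.0233 in siCtrl and 0.103 ± 0.00555 in siDDX17, also without overlap. On the log2 scale the largest difference was that of LAMA4 to LAMA5, a ratio of 0.00723 ± 0.000319 in siCtrl and 0.0371 ± 0.00394 in siDDX17. The groups also did not overlap for ITGA2 to ITGB1, LAMA3 to LAMB3, TLN2 to TLN1, PARVA to ILK, LIMS1 to ILK and TNS3 to TNS1. By contrast, the groups overlapped for ITGA3 to ITGB1 (1.11 ± 0.104 and 1.03 ± 0.0803), ITGAV to ITGB5 (0.116 ± 0.0219 and 0.125 ± 0.00746) and LAMB1 to LAMC1 (1.04 ± 0.0435 and 1.12 ± 0.0339).

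**Figure D4:**
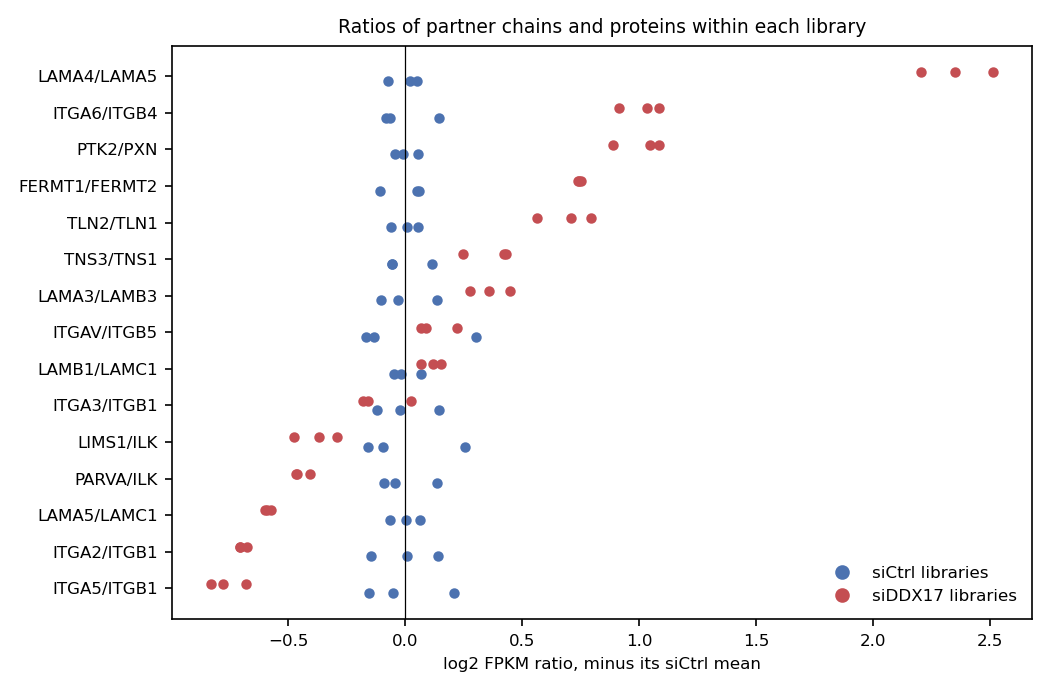
Log2 ratio of FPKM of 15 partner pairs in each library, minus the siCtrl mean of that pair (x axis), with siCtrl libraries in blue and siDDX17 libraries in red. The siDDX17 points lie farthest from 0 for LAMA4/LAMA5, with a mean of 2.36, and near or above 1 for ITGA6/ITGB4 and PTK2/PXN. They mix with the siCtrl points for ITGAV/ITGB5, LAMB1/LAMC1 and ITGA3/ITGB1.

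Other genes of the pathway were followed in 4 lists of matrix ligands, other laminin receptors, adaptors, and kinases with GTPase regulators. Of 76 tested genes, 25 rose, 16 fell and 35 were not called, against the 24.5% and 24.3% of all tested genes. Among 13 other matrix and basement membrane proteins, 5 rose and 1 fell. NTN4, a netrin that binds laminins in basement membranes, rose from 15.1, 9.16 and 12.3 CPM to 38.5, 40.3 and 46.2 CPM (1.77, SE 0.134, adjusted p = 2.42e-07 in edgeR). CYR61, a matricellular ligand of integrins, rose from 25.4, 22.7 and 17.9 CPM to 46.0, 48.1 and 44.1 CPM (1.07, SE 0.101). Among 9 tetraspanins, hemidesmosome genes and laminin receptors other than integrins, 1 rose and 2 fell, and 6 were not called. CD9, a tetraspanin that associates with integrins, fell (-0.85, SE 0.0580), and the hemidesmosome gene PLEC was not called (-0.05, SE 0.0582).

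Among 27 adaptors and actin linkers, 9 rose and 5 fell. LPP, a LIM protein related to zyxin, rose from 19.6, 14.9 and 17.7 CPM to 43.5, 39.9 and 44 CPM (1.28, SE 0.0906, adjusted p = 1.32e-07 in edgeR). Among 27 kinases, GTPases and their regulators, 10 rose and 8 fell. DOCK1, the exchange factor for RAC1 that acts downstream of BCAR1, rose from 14.3, 12.4 and 13 CPM to 34.3, 29.3 and 32.8 CPM (1.28, SE 0.0834, adjusted p = 6.77e-08 in edgeR). RAPGEF1, an exchange factor for RAP1, rose at 1.07 (SE 0.0806), and CSK, the kinase that restrains SRC, rose at 1.01 (SE 0.0831), at 0.99 and 0.96 without siCtrl 1. These 6 of the 76 tested genes of the lists were past a log2 fold change of 1, and all of them rose. At this limit 4.65% of all tested genes were called up and 2.92% down, and a difference from these shares was not tested. RAC1 rose (0.40, SE 0.0755) and RHOA fell (-0.57, SE 0.0553), both being GTPases that shape the actin of adhesions.

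**Figure D5:**
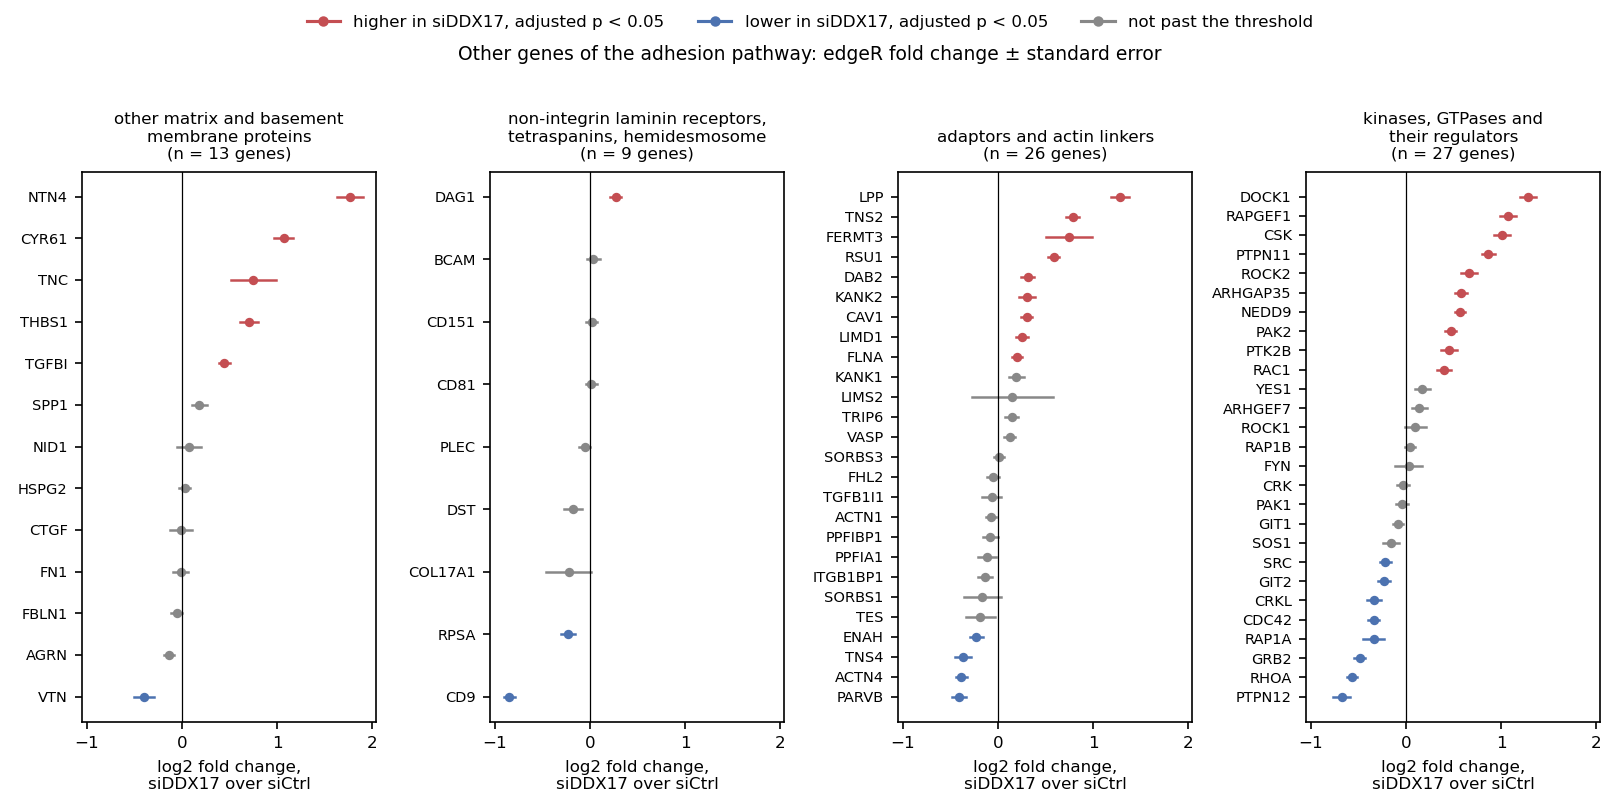
Log2 fold change (siDDX17 over siCtrl, x axis) of 75 other genes of the adhesion pathway in 4 lists, with bars of 1 standard error and colours as called at an adjusted p under 0.05 (red up, blue down). NTN4, LPP, DOCK1, CYR61, RAPGEF1 and CSK are the points above 1, and no point lies below -1.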

How the data were processed

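Raw counts of reads per gene and FPKM values of 6 A549 libraries were used, 3 siCtrl and 3 siDDX17, which the study describes as biological replicates, grouped by their labels. The authors trimmed the reads with ASTX-Toolkit 0.0.13, mapped them to GRCh38 with TopHat2 and deposited the counts of uniquely mapped reads per gene. The authors also deposited FPKM values, rounded to 2 decimals, so that low levels are coarse. The paper describes a stranded library kit. The counting program, the annotation and the use of strand in the counting are not given in the sources used here. Therefore 10 members that share exons with another gene of at least 100 reads are less certain. They are ILK, PXN, VCL, ITGA1, ITGA6, ITGA7, ITGB1, ITGB7, LAMA5 and LAMB1. For example, LAMB1 shares 300 exon bases with DLD on the other strand, which had 17363 reads.

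Counts were tested with edgeR 4.0.16 in R 4.3.3 (TMM scaling, filterByExpr, glmQLFit, glmQLFTest), with Benjamini-Hochberg adjustment over 15615 genes. All p-values of single genes are from this fit unless named otherwise. Log2 fold changes are siDDX17 over siCtrl. On simulated counts of this comparison over 15615 genes, 176 of 200 genes changed by a log2 fold of 1 were called, along with 7 unchanged genes. The simulation changed only 200 genes, and by a larger fold than most members showed. It does not measure the error of the calls reported here. Shares and ratios of FPKM were compared by exact two-sided permutation tests. Alternatives were DESeq2 1.42.0, other scalings and filters, a block for the replicate number, limma 3.58.1 applied to log2 FPKM, and the omission of each library.

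The members and the lists were chosen with earlier results of these data known. Values in every library are given for members with an adjusted p under 0.05 and a fold change of 1.5, the 4 most abundant of each class, members under 60 reads in 1 group only, and DDX17. The other members are given by their range or are not reported here, and from the pathway lists the genes past a log2 fold change of 1 are named. CD9, PLEC, FN1, RAC1, RHOA and TNS4 were named after their values were seen. Locations, exons and 3' UTRs were those of GENCODE release 44. TENC1 was not in the table under this symbol, NID2 and POSTN did not pass the filter, and CD3E and LCP2 of the leukocyte list were not in the table. Protein sequences were not used here.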

Additional observations from a re-analysis of the deposited data

How the results depend on the processing

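Of the 26 called members, 15 were called in every one of the alternatives that tested them, and the other 11 were lost in at least 1 (BCAR1, FERMT2, ILK, ITGA11, ITGA3, ITGB7, ITGB8, LAMB1, LAMB2, LIMS1 and PARVA), while 0 of the 26 changed direction in the 16 alternatives. The counts depended most on the scaling. The share of all tested genes called is given above for library size only. It is not given for the other alternatives or for the omission of a library. The counts of members in those settings therefore cannot be set against all genes. With library size only, the median over all genes moved from 0.01 to 0.13 (log2), and 20 members were up and 8 down; of these, 5 alpha chains, 3 beta chains and 5 laminins were up and 2 focal adhesion genes were down. The study's limits then gave 8 up and 2 down, and 0 were down past a log2 fold change of 1. limma on log2(FPKM + 1), log2(FPKM + 0.1) and log2(FPKM + 1) without a filter gave 7, 7 and 7 members down, 0, 1 and 0 up and 0, 0 and 0 down past a log2 fold change of 1, 1, 2 and 1 down at the study's limits, and 2, 1 and 1 focal adhesion genes down. The first and the last gave 1 and 1 up at the study's limits, the first gave 5 laminins up and 1 beta chain down, and the last 0 beta chains up. A fold change on the log2(FPKM + 1) scale understates that of low genes by construction. With at least 10 counts in every library, 1 member was up and 0 were down past a log2 fold change of 1, and 0 beta chains were up and 1 was down, since ITGB2, ITGB6, ITGB7 and ITGB8 were then not tested. DESeq2 gave 0 members down past a log2 fold change of 1 and 1 beta chain down, and no filter gave 2 beta chains up. The causes were not tested beyond this.

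Leaving out 1 library gave 10 to 15 members up and 9 to 13 down, 2 to 3 up and 0 to 1 down past a log2 fold change of 1, and 4 to 7 up and 3 to 5 down at the study's limits. It gave 2 to 4 alpha chains up, 1 to 2 beta chains up and 1 to 2 down, 2 to 3 laminins up, and 3 to 5 focal adhesion genes down. Without siDDX17 2 or siDDX17 3, 3 focal adhesion genes were down, and without siCtrl 1 or siDDX17 3, 2 beta chains were up. DDX17 stayed between -2.66 and -2.54.

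Signs turned for 6 members that were not called. VCL was at 0.0929 with library size only and at 0.0947, 0.0985 and 0.0947 in limma on log2(FPKM + 1), log2(FPKM + 0.1) and without a filter. ZYX was at 0.00182 with upper quartile scaling, 0.0943 with library size only and 0.0989, 0.10 and 0.0989 in limma, and ITGB1 was at 0.00216 with library size only and 0.00915, 0.00918 and 0.00915 in limma. Leaving out 1 library moved ITGA2B between -0.147 (without siCtrl 1) and 0.167, with -0.0434 without siDDX17 2, ITGB5 between -0.0133 (without siCtrl 1) and 0.0842, and LAMA2 between -0.0394 (without siCtrl 3) and 0.250, with -0.0390 without siDDX17 3. With reads per exon length in place of FPKM, the shares changed by -4.97 percentage points for ITGA5, -8.96 for LAMA5 and 1.93 for LAMA4, against -4.40, -9.56 and 2.32. The order of some chains within a group also differed with this length, as given above.

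The replicate numbers did not pair the samples, as the correlations of the deviations of libraries with the same number were 0.007, 0.041 and -0.056. With the replicate block, 13 members were up and 13 down, and at the study's limits 5 were up and 4 down.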
